A study of Mus musculus with 35 samples.

Results

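The complement components and regulators described here are 9 genes, *C1ra*, *C1s1*, *C4b*, *C3*, *Cfb*, *Hc*, *Cfi*, *Serping1* and *Cd55*, of the 53465 genes in the count table. They were taken by gene symbol, each symbol matched 1 gene identifier, and all 9 were followed across 35 RNA-seq libraries by organ, day and Smad4 label. The members were chosen by their measured levels and differences in these same libraries, with no single comparison named as the source. Counts over the members are therefore descriptions, and the adjusted *P* values, always computed over all genes tested, are not independent support for the choice.

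The libraries were made from mKate2+ cells sorted from tumors of KC-shSmad4 pancreatic ductal adenocarcinoma (PDAC) cells. These cells carry a pancreas-directed Ptf1a-Cre, the reverse Tet transactivator rtTA3 linked to the mKate2 reporter, and a doxycycline (Dox)-inducible, GFP-linked short hairpin RNA against *Smad4*, so that Dox in the chow silences *Smad4* and its withdrawal restores it. Lines from male mice were implanted orthotopically, injected into the spleen (for liver tumors) or into the tail vein (for lung tumors) of female athymic nude (Foxn1 nu) hosts aged 6 to 8 weeks that were fed Dox chow, and withdrawal began at week 4 (pancreas), 5 (liver) or 6 (lungs) after injection. Nude mice lack most T cells, and the labels do not say which line or animal gave each library, so that *P* values measure the spread between these libraries.

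The 12 groups were pancreas labelled Smad4 off and on at day 7 (3 and 2 libraries) and day 14 (2 and 3), liver at day 7 (2 and 3) and day 14 (3 and 3), and lung at day 7 (4 and 2) and day 14 (4 and 4). All hosts had received Dox from the start, which the labelled-on groups had then lost for 7 or 14 days. *Smad4* mRNA went against the labels: it was 69.9 to 143 CPM (counts scaled to library size with TMM factors) in the 18 libraries labelled off and 14.8 to 22.4 CPM in the 17 labelled on. The libraries are therefore called labelled on and labelled off throughout, and each difference is labelled on minus labelled off, with no claim as to which had working Smad4.

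Totals ran from 11885461 to 43571007 counts, so that 3 counts corresponded to 0.0689 to 0.252 CPM. Only 10 libraries, 4 from liver and 6 from lung, had counts on the mitochondrial gene *mt-Co3*, and these are named where a value turns on them. The liver library labelled off at day 7, replicate 2, the only paired-end one, stood apart: 8 fibroblast markers summed to 36112 CPM (255 to 4329 in the other 10 liver libraries), 6 acinar markers to 299 CPM (0 to 0.538) and 8 tumor epithelium markers to 4056 CPM (12546 to 18027). Member calls by label and between organs that rest on it are given with and without it, and the counts of groups without overlap are given with it alone. Tumor epithelium markers were present in all libraries, at 2841 to 18027 CPM in sum. Fibroblast markers were at 8876 to 24540 CPM in pancreas libraries and 161 to 2016 CPM in lung libraries.

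Complement is a cascade of plasma proteins that coats targets, recruits inflammatory cells and punctures membranes. The proteases C1r and C1s, encoded in the mouse by *C1ra* and *C1s1*, act in the C1 complex of the classical pathway and cleave C4, encoded by *C4b*. C3 is the hub at which all pathways meet, factor B (*Cfb*) supplies the protease of the alternative-pathway convertase, and C5, encoded by *Hc*, starts the membrane attack complex. Factor I (*Cfi*) degrades C3b and C4b, the C1 inhibitor (*Serping1*) blocks C1r and C1s, and decay-accelerating factor (*Cd55*) takes apart convertases at the cell surface. Hepatocytes make most of the circulating proteins, but epithelial cells, fibroblasts and macrophages also transcribe several of these genes, which is why host RNA is considered below.

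In the GRCm38 coordinates of the files, *C1ra* (ENSMUSG00000055172, chr6:124512405-124523443, + strand) and *C1s1* (ENSMUSG00000038521, chr6:124530345-124542359, - strand) lie 6.9 kb apart. *C4b* (ENSMUSG00000073418, chr17:34728380-34743882, -) and *Cfb* (ENSMUSG00000090231, chr17:34856374-34862518, -) lie 112 kb apart on the same chromosome as *C3* (ENSMUSG00000024164, chr17:57203970-57228136, -). *Hc* (ENSMUSG00000026874, chr2:34983331-35061438, -), *Serping1* (ENSMUSG00000023224, chr2:84765387-84775444, -), *Cfi* (ENSMUSG00000058952, chr3:129835884-129875332, +) and *Cd55* (ENSMUSG00000026399, chr1:130439027-130462744, -) are at separate loci. Near-identical copies drew few counts, so that a split of reads could move little: *C4a* held 0.556% of the counts of *C4b* and *C4a* together, *C1rb* 0.675% of those of *C1ra* and its copy, *Cd55b* 0.0685%, and *C1s2* 3.86%, although in 1 library of few counts *C1s2* held 30.4%.

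RefSeq promoter entries (GRCm38.p6) were matched for 5 members, *C3*, *C1s1*, *C1ra*, *Hc* and *Cd55*, and not for *C4b*, *Cfb*, *Cfi* and *Serping1*. The stretch from 250 to 27 bases before the RefSeq start is shown for C3 and C1s1, whose levels moved together, for Hc, which differed most by label in the pancreas at day 7, and for Cd55, which moved apart from them. The RefSeq start of *C1ra* lies 216 bases inside the gene of the files and its stretch is not shown. The positions are chr17:57228163-57228386 for *C3*, chr6:124542386-124542609 for *C1s1*, chr2:35061439-35061662 for *Hc* and chr1:130462771-130462994 for *Cd55*, all on the - strand and written 5′ to 3′. Capitals mark matches, on either strand, to the SMAD-binding core CAGAC, the C/EBP pattern TTNCNNAA or the NF-kB pattern (GGG and CC, 5 bases of any kind apart):
C3: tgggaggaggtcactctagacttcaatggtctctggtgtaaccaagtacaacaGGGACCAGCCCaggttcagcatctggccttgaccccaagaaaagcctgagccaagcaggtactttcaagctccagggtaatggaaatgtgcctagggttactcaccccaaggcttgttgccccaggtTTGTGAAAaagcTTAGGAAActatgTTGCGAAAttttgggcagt
C1s1: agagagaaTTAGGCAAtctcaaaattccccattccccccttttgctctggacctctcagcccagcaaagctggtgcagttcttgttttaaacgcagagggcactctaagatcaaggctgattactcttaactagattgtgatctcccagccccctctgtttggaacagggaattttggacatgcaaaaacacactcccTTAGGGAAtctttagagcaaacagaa
Hc: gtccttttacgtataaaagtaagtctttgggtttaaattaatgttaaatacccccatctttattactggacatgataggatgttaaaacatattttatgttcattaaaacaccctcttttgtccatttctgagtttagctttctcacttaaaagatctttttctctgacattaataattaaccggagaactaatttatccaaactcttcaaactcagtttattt
Cd55: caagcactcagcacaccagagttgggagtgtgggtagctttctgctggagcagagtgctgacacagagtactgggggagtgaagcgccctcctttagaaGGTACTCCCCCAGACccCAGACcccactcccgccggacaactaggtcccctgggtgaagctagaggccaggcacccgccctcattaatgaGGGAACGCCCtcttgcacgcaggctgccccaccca

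*C3* held 3 matches to the C/EBP pattern and 2 overlapping matches to the NF-kB pattern, and *C1s1* held 2 to the C/EBP pattern. *Cd55* held 2 SMAD-binding cores and 2 NF-kB matches, and *Hc* held no match to any pattern. The SMAD palindrome GTCTAGAC and the STAT pattern TTCNNNGAA were also searched and had no match in these 4 stretches. These patterns are common: among 32851 promoter stretches of this length, 34.6% held TTNCNNAA, 41.8% the NF-kB pattern, 39.0% CAGAC, 6.35% TTCNNNGAA and 0.161% GTCTAGAC. A match is a description of letters and says nothing on binding.

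Per kilobase of transcript, *C3* was the most abundant member in 5 of the 6 combinations of organ and label and *Hc* was the least in 5. The median level of *C3* was 22.1 CPM per kb in pancreas labelled off, 39.2 in pancreas labelled on, 53.0 in liver labelled on, 128 in lung labelled off and 179 in lung labelled on. In liver labelled off *Cfi*, at 13.4 CPM per kb (range 5.36 to 18.8), and *C3*, at 13.3 (6.19 to 29.1), overlapped and could not be ordered. *Cfi* and *C4b* followed *C3* in the other combinations, at medians of 12.9 to 52.3 CPM per kb. *Hc* had medians of 0.102 to 0.565 CPM per kb except in pancreas labelled on, where it was at 1.71 CPM per kb and *Cfb*, at 1.29, and *Cd55*, at 1.33, were below it.

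**Figure D1:**
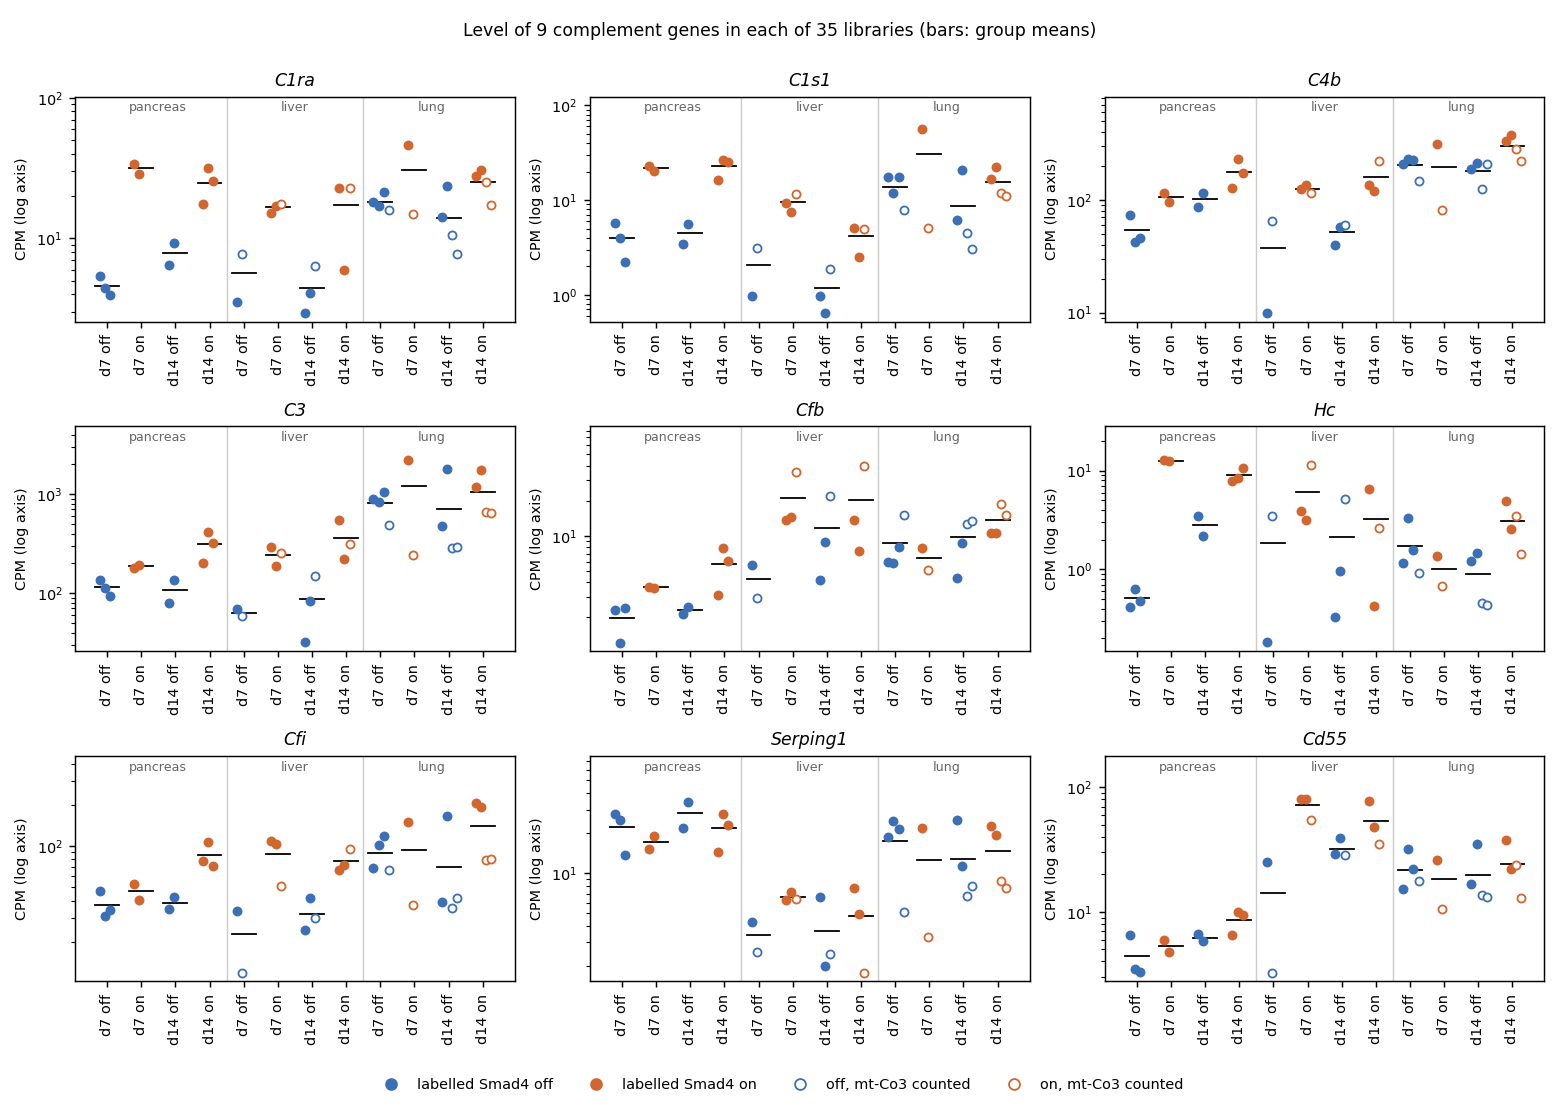
Level of each complement gene in each of the 35 libraries, in TMM-scaled CPM on a log axis, by organ, day (d7, d14) and Smad4 label; bars are group means and open points are libraries with *mt-Co3* counts. In the pancreas the labelled-on points of *C1ra*, *C1s1* and *Hc* lie above all labelled-off points, and *C3* is highest in lung libraries.

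In the pancreas, the 2 proteases of C1 and C5 mRNA were higher in libraries labelled on, and so was factor I mRNA at day 14. Those libraries are the ones with less *Smad4* mRNA. At day 7, 3 of 9 members passed (adjusted *P* under 0.05 and fold over 2), all higher, beside 0.956% of 14439 genes called higher. At day 14, 4 of 9 passed, all higher, beside 3.39% of 14234 genes. Members entered the list with such values known, so nothing is read from these shares.

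*Hc* was 0.412, 0.636 and 0.483 CPM in the 3 pancreas libraries labelled off at day 7 and 12.8 and 12.6 CPM in the 2 labelled on, a difference of 4.62 ± 0.27 (log2, SE; 24.7-fold, adjusted *P* = 0.00325). At day 14 it was 3.51 and 2.17 CPM labelled off against 7.83, 8.34 and 10.7 CPM labelled on, a difference of 1.69 ± 0.28 (adjusted *P* = 0.00747). The groups did not overlap on either day, and the day-14 libraries labelled off were all above those of day 7.

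*C1ra* was 5.41, 4.45 and 3.98 CPM labelled off and 34.1 and 28.9 CPM labelled on at day 7 (log2 difference 2.78 ± 0.19, adjusted *P* = 0.00332). At day 14 *C1ra* was 6.5 and 9.24 CPM labelled off against 17.6, 31.5 and 25.5 CPM labelled on (1.68 ± 0.29, adjusted *P* = 0.0153). Its partner *C1s1* moved alike, and neither gene had overlapping groups. *C1s1* went from 5.76, 3.99 and 2.23 CPM to 23.1 and 20.1 CPM at day 7 (2.44 ± 0.36, adjusted *P* = 0.0354). At day 14 *C1s1* went from 3.40 and 5.63 CPM to 16.4, 26.6 and 24.9 CPM (2.34 ± 0.31, adjusted *P* = 0.0054).

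*Cfi* passed at day 14 alone, at 34.7 and 42.6 CPM labelled off against 78.3, 107 and 71.5 CPM labelled on (1.17 ± 0.20, adjusted *P* = 0.0149). At day 7 its difference was 0.33 ± 0.22 (adjusted *P* = 0.41), and the difference between days was not tested. *C3* was 137, 114 and 94.2 CPM labelled off and 181 and 191 CPM labelled on at day 7 (0.71 ± 0.17, adjusted *P* = 0.0767), then 80.2 and 134 CPM against 202, 414 and 322 CPM at day 14 (1.56 ± 0.41, adjusted *P* = 0.0849). *C3* thus had groups that did not overlap on either day and did not pass.

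The other members of the pancreas did not pass on either day. *C4b* had differences of 0.98 ± 0.26 and 0.84 ± 0.29, *Cfb* of 0.88 ± 0.37 and 1.32 ± 0.39, *Cd55* of 0.27 ± 0.37 and 0.50 ± 0.23, and *Serping1* of -0.36 ± 0.32 and -0.36 ± 0.33 at days 7 and 14. *Serping1* and *Cd55* were the members whose groups overlapped on both days. In all, 6 of 9 members lay above without overlap at day 7, beside 21.0% of genes, and 7 of 9 at day 14, beside 21.9%. 

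These counts rest on few libraries. Without the labelled-off replicate 2 at day 14, *C1s1* was the 1 member called, and without replicate 1, *Hc* and *C1s1* were called, 2 in all. *C1s1* at day 7 had adjusted *P* = 0.051 to 0.167 in 4 of the 5 fits that left out a library, with log2 differences of 2.15 to 2.54. Fibroblast markers summed to 11826 to 16933 CPM in labelled-off and to 23698 and 24540 CPM in labelled-on pancreas libraries of day 7, and 2 of 8, *Col3a1* and *Pdgfra*, were called higher. Acinar markers went the other way at day 7, at 1413 to 2295 CPM labelled off and 521 and 721 CPM labelled on, with 1 of 5 tested, *Ctrb1*, called lower. Among hepatocyte markers *Ttr* and *Serpina1b* were called higher at day 14, of 4 tested. *Col1a2*, 1 of 8 fibroblast markers, was called higher at day 14, and *Sftpd*, 1 of 2 lung epithelium markers tested, at day 7. Tumor epithelium markers summed to 4625 and 4989 CPM labelled off and 5874 to 8168 CPM labelled on at day 14, with 7 of 8 positive (median 0.48) and 0 called. At day 14 macrophage markers summed to 156 and 240 CPM labelled off and 264 to 277 CPM labelled on, with 0 of 6 tested called. The part of these cells in the pancreas differences was not tested, and in bulk libraries fewer cells of a type and less RNA per cell cannot be told apart.

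**Figure D2:**
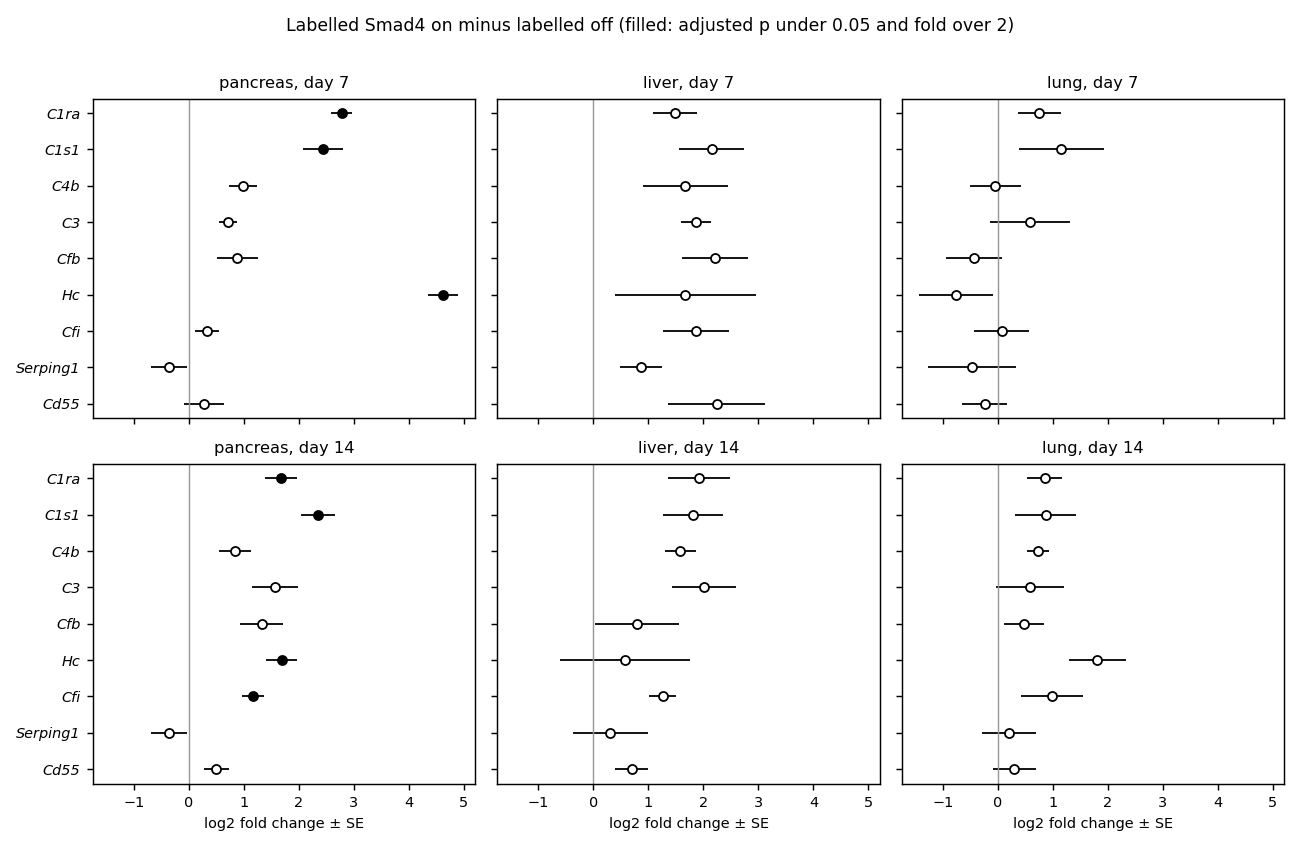
Log2 fold change, labelled on minus labelled off, with its SE for each member in each organ and day; filled points passed an adjusted *P* under 0.05 and a fold over 2. Filled points occur in the pancreas alone, *C1ra*, *C1s1* and *Hc* on both days and *Cfi* at day 14, and all 9 liver points are above 0 on both days.

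In the liver all 9 members had a positive difference in libraries labelled on, which held less *Smad4* mRNA, at both days, and none passed. The median difference over the members was 1.86 at day 7, against -0.06 over all genes tested, and 1.26 at day 14, against 0.00 over all genes. edgeR called 0 of 9 at day 7, where 0.181% of 16007 genes were called higher, and 0 of 9 at day 14, where 0.0% of 14947 genes were called. At day 7 an unadjusted *P* under 0.05 was reached by 6 of 9 members, beside 4340 of 16007 genes. At day 14 it was reached by 5 of 9, beside 1447 of 14947 genes. DESeq2 called 6 of 9 at day 7, where it called 10.1% of genes higher and 7.62% lower, and 4 of 9 at day 14, beside 0.91% and 1.31%. At day 7 the libraries labelled on lay above those labelled off for 8 of 9 members, all except *Hc*, beside 27.1% of genes, and at day 14 for 4 of 9, *C3*, *C4b*, *Cfi* and *C1s1*, beside 8.5%.

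*C3* was 68.4 and 58.5 CPM in the liver libraries labelled off and 294, 188 and 252 CPM in those labelled on at day 7 (1.86 ± 0.27, 3.64-fold, adjusted *P* = 0.0562). At day 14 *C3* was 31.8, 82.7 and 149 CPM against 545, 223 and 312 CPM (2.01 ± 0.58, adjusted *P* = 0.375). *C4b* was 9.97 and 65.3 CPM against 126, 136 and 115 CPM at day 7 (1.67 ± 0.77, adjusted *P* = 0.241), and 39.9, 57.6 and 59.7 CPM against 135, 121 and 223.9 CPM at day 14 (1.58 ± 0.29, adjusted *P* = 0.357). Both genes were higher in every liver library labelled on than in any of the same day labelled off.

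*Cfi* was 33.7 and 11.9 CPM labelled off and 109, 104 and 50.9 CPM labelled on in the day-7 liver (1.86 ± 0.60, adjusted *P* = 0.129), and 24.5, 41.8 and 29.8 CPM against 67.3, 72.4 and 94.6 CPM at day 14 (1.26 ± 0.24, adjusted *P* = 0.357). *Cd55* was 25.3 and 3.26 CPM against 80.8, 80.7 and 54.9 CPM at day 7 (2.24 ± 0.88, adjusted *P* = 0.181), and the groups overlapped at day 14, with 28.9, 39.0 and 28.8 CPM against 77.5, 48.0 and 35.05 CPM. *Cfb* was 5.59 and 2.93 CPM against 13.7, 14.5 and 35.2 CPM at day 7 (2.21 ± 0.60, adjusted *P* = 0.0997) and overlapped at day 14. For *Cfi*, *Cd55* and *Cfb*, the low day-7 value labelled off belonged to the library that stood apart.

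The C1 proteases moved the same way without passing. *C1s1* was 0.981 and 3.10 CPM labelled off and 9.23, 7.43 and 11.7 CPM labelled on at day 7 (2.15 ± 0.60, adjusted *P* = 0.102), and 0.960, 0.649 and 1.88 CPM against 5.08, 2.48 and 5.00 CPM at day 14 (1.81 ± 0.55, adjusted *P* = 0.389). *C1ra* was 3.56 and 7.72 CPM against 15.2, 17.1 and 17.6 CPM at day 7 (1.49 ± 0.40, adjusted *P* = 0.097). At day 14 the lowest *C1ra* library labelled on, at 5.96 CPM, fell within the labelled-off range of 2.94 to 6.38 CPM.

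*Hc* in the liver varied more among replicates than between labels. It was 0.182 and 3.51 CPM labelled off against 3.94, 3.14 and 11.3 CPM labelled on at day 7 (1.67 ± 1.28, adjusted *P* = 0.467), and 0.330, 0.955 and 5.12 CPM against 6.58, 0.431 and 2.61 CPM at day 14 (0.57 ± 1.18, adjusted *P* = 0.922). *Serping1* was 4.29 and 2.56 CPM against 6.28, 7.23 and 6.42 CPM at day 7 (0.87 ± 0.38, adjusted *P* = 0.217) and ran from 1.78 to 7.69 CPM over both labels at day 14.

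The day-7 liver calls turned on single libraries. Without the library that stood apart, 3 members were called, *C4b* (3.55 ± 0.24, adjusted *P* = 0.0261), *C1s1* (3.16 ± 0.45, adjusted *P* = 0.0335) and *C1ra* (2.12 ± 0.29, adjusted *P* = 0.0312), beside 3.12% of 17266 genes called higher, and the median over the members was 1.80 (0.06 over all genes). Without the other labelled-off library, 4 members were called, *C3* (2.04 ± 0.33), *Cfi* (2.86 ± 0.55), *C1ra* (1.09 ± 0.26) and *Cd55* (4.44 ± 0.37), beside 10.1% of 17076 genes called higher. Each of these fits leaves 1 library labelled off, which is assumed to vary like the others. With log2 *Xist* as a covariate, *Cd55* (-2.49 ± 0.56), *Cfi* (-1.17 ± 0.81) and *Serping1* (-0.40 ± 0.80) turned direction at day 7 and no member passed. Among libraries without *mt-Co3* counts, 1 labelled off and 2 labelled on, 8 of 9 were called at day 7, all higher, and *Serping1* was not (0.56 ± 0.27). In that fit 13.8% of 16792 genes were called higher and 7.05% lower, and the 1 library labelled off has no spread of its own and is assumed to vary like the 2 labelled on.

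Markers of host cells moved with the label in the liver. Macrophage markers summed to 137 and 67.8 CPM labelled off and 250 to 271 CPM labelled on at day 7, and to 158 to 209 CPM against 241 to 508 CPM at day 14, and 6 of the 7 tested had a positive difference on each day, none called. Of 16 hepatocyte markers, 13 were tested at day 7 and all 13 had a positive difference (median 2.53), none called. At day 14, 11 of 14 tested were positive (median 0.47). A list of 8 lung epithelium markers also summed to more, at 10.2 and 35.4 CPM labelled off and 151 to 327 CPM labelled on at day 7, with 3 of 8 tested and none called. Fibroblast markers were lower at day 7, with 8 of 8 negative and none called, where the library that stood apart is labelled off. At day 14, 1 of 8 was positive (median -0.20). Of 8 tumor epithelium markers, 7 were positive at day 7 (median 1.04) and 4 at day 14 (-0.05). Endothelium markers were positive in 4 of 5 tested at day 7 and 2 of 4 at day 14. All 6 other leukocyte markers tested at day 7 and all 4 at day 14 were positive. None of these was called. The part of these cell types in the liver differences was not tested.

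In the lungs, where libraries labelled on again held less *Smad4* mRNA, no member passed on either day. Macrophage markers moved with the label at day 14, at 232 to 358 CPM labelled off and 380 to 737 CPM labelled on, with 5 of 6 tested positive and none called. At day 14 all 8 lung epithelium markers (median log2 difference 0.69), all 5 of the other leukocyte markers tested (0.86) and 7 of 8 fibroblast markers (0.51) were positive, and at day 7 none of the 8 fibroblast markers was (-1.30). None of these was called, and their part in the lung values was not tested. At day 7, 4 of 9 members had a positive difference and the median was -0.05. No member had an unadjusted *P* under 0.05 at day 7, beside 793 of 15193 genes (0.0% of genes were called). At day 14 all 9 were positive, with a median of 0.72 (0.0203% of 14751 genes were called higher and 0.00678% lower). An unadjusted *P* under 0.05 was reached at day 14 by 3 of 9, beside 1485 of 14751 genes. DESeq2 called 0 of 9 at day 7 and 1 of 9, *Hc*, at day 14, when it called 0.814% of genes higher. *C4b* was the 1 member of 9 with no overlap at day 14, beside 2.6% of genes, and no member of 9 was without overlap at day 7, beside 5.0%.

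*Hc* in day-14 lung libraries was 1.23, 1.45, 0.461 and 0.434 CPM labelled off and 4.91, 2.58, 3.46 and 1.44 CPM labelled on (1.81 ± 0.52, 3.51-fold, adjusted *P* = 0.276). With a covariate for libraries with *mt-Co3* counts the *Hc* difference was 1.90 ± 0.39 and passed (adjusted *P* = 0.041), beside 0.644% of genes called higher. *C4b* was 188, 211, 124 and 208 CPM labelled off and 332, 376, 282 and 223.8 CPM labelled on (0.72 ± 0.20, adjusted *P* = 0.275). The last 2 values of each of these lists are libraries with *mt-Co3* counts. Within either set of libraries each value labelled on was above each value labelled off for both genes. The share of all genes that separated in this way was not computed, so nothing is read from it.

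At day 7 *C3* in the lung was 883, 824, 1047 and 491 CPM labelled off and 2196 and 245 CPM labelled on, with the last value of each group from a library with *mt-Co3* counts. At day 14 it was 481, 1779, 287 and 293 CPM against 1179, 1765, 657 and 646 CPM. Among the libraries without *mt-Co3* counts at day 7, 3 against 1, the difference of *C3* was 1.25 ± 0.18 (adjusted *P* = 0.052), and *C1s1* (1.84 ± 0.24, adjusted *P* = 0.0416) and *C1ra* (1.29 ± 0.18, adjusted *P* = 0.0448) passed, beside 0.44% of 15680 genes called higher. The 1 library labelled on in that fit, with *C3* at 2196 CPM, has no spread of its own and is assumed to vary like the 3 labelled off. *C1s1* was 17.7, 11.8, 17.5 and 7.80 CPM labelled off and 56.2 and 5.07 CPM labelled on in these day-7 libraries.

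The difference between the liver response and the lung response was tested directly and no member passed on either day. At day 7 the liver response was the larger for all 9 members (median 1.79 log2, against -0.01 over all genes), with *Cfb* at 2.70 ± 0.83 (adjusted *P* = 0.104) and *Cd55* at 2.51 ± 0.99 (adjusted *P* = 0.183) the furthest by *P* value, beside 0.88% of 16369 genes called higher in the liver. An unadjusted *P* under 0.05 was reached by 2 of 9 at day 7, beside 3450 of 16369 genes. At day 14 it was reached by 1 of 9, *C4b*, beside 478 of 15869 genes, and 0.0% of genes were called. DESeq2 called 1 of 9, *Cfb*, at day 7, beside 6.79% of genes called higher, and 0 at day 14. Without the liver library that stood apart, the day-7 median was 1.69 (0.09 over all genes), *Cfb* was at 2.28 ± 0.93 (adjusted *P* = 0.241) and *Cd55* at 1.69 ± 0.65 (adjusted *P* = 0.223), and 0 of 9 members and 0.0115% of 17386 genes were called higher. In that fit 5 of 9 members had an unadjusted *P* under 0.05. The share of all genes that did was not computed, so nothing is read from this count.

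Between organs, *C3* was the member most clearly higher in lung libraries and *Cd55* the one most clearly lower in the pancreas. These contrasts averaged both days within 1 label and share groups with one another. Lung minus pancreas gave 5 of 9 members higher among libraries labelled off (10.5% of 16606 genes were called higher and 7.75% lower) and, labelled on, 2 of 9 higher (6.08% of 16751) and 1 of 9 lower (7.46%). *C3* was 6.51-fold higher labelled off (log2 2.70 ± 0.50, adjusted *P* = 0.000951) and 4.64-fold higher labelled on (2.21 ± 0.48, adjusted *P* = 0.0044). *Cd55* was higher by 1.91 ± 0.43 and 1.61 ± 0.31. Host markers differed in the same contrast. Lung epithelium markers were called higher in 8 of 8 labelled off (median log2 8.71) and 7 of 8 labelled on (8.39). Endothelium markers were called higher in 3 of 6 labelled off and 4 of 6 labelled on, and all 8 fibroblast markers were called lower in both labels. The part of these cells in the differences between lung and pancreas was not tested.

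*C4b* (1.32 ± 0.33), *Cfb* (2.07 ± 0.44) and *C1ra* (1.34 ± 0.28) were also higher in lung than in pancreas libraries labelled off. *C1s1*, at 1.28 ± 0.48, had adjusted *P* = 0.0504, and with DESeq2's size factors 7 of 9 passed. The 1 member lower in lung was *Hc*, labelled on, by 2.60 on the log2 scale (SE 0.59, adjusted *P* = 0.00559). It was 7.83 to 12.8 CPM in the 5 pancreas libraries labelled on and 0.680 to 4.91 CPM in the 6 lung libraries labelled on.

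Liver minus pancreas showed *Cd55* and *Cfb* higher in both labels. *Cd55* was 3.99-fold higher (adjusted *P* = 0.012) labelled off and 8.99-fold higher (log2 3.17 ± 0.33, adjusted *P* = 6.63e-06) labelled on, and *Cfb* by 1.68 ± 0.46 and 2.18 ± 0.45. *Cd55* was 3.32 to 10.0 CPM in the 10 pancreas libraries and, apart from the library that stood apart, 25.3 to 80.8 CPM in the liver. *Serping1* was lower by 2.84 (SE 0.50, adjusted *P* = 0.00431) and 1.79 (SE 0.45, adjusted *P* = 0.00555), and *C1s1* labelled on was lower by 1.83 (SE 0.43). In counts, 2 of 9 were higher and 1 of 9 lower labelled off (4.63% and 3.9% of genes), and 2 of 9 higher and 2 of 9 lower labelled on (11.0% and 11.4%).

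Liver minus lung showed 6 of 9 members lower in the liver among libraries labelled off (2.7% of genes were called lower and 1.63% higher) and 2 of 9 labelled on (5.12%), with *Cd55* higher labelled on (1.55 ± 0.29; 6.04% of genes were called higher). *C3* was lower in the liver by 3.32 (SE 0.52, 10.0-fold, adjusted *P* = 0.00245) labelled off and by 1.94 (SE 0.44, adjusted *P* = 0.00663) labelled on. *C1s1* was lower by 2.81 (SE 0.53) and 1.79 (SE 0.42). *C4b*, *C1ra*, *Cfi* and *Serping1* were lower labelled off by 2.11, 1.66, 1.52 and 2.02, and labelled on their differences were -0.79, -0.72, -0.46 and -1.26 and did not pass.

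**Figure D3:**
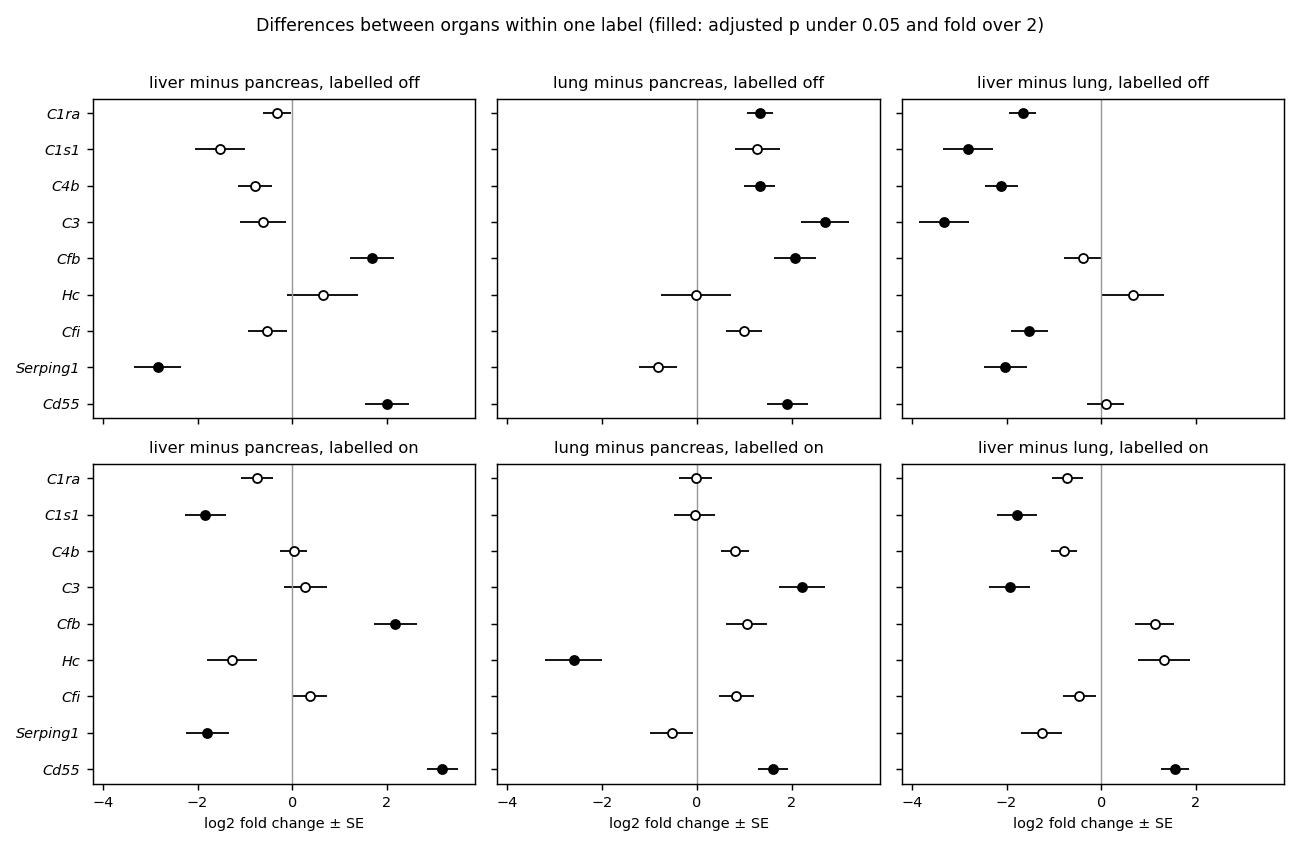
Log2 differences between organs with their SE for each member, within libraries labelled off (top) or labelled on (bottom), averaged over both days; filled points passed an adjusted *P* under 0.05 and a fold over 2. *C3* lies right of 0 in lung minus pancreas and left of 0 in liver minus lung in both rows, and *Cd55* lies right of 0 in liver minus pancreas.

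Single libraries changed some of these calls, and calls over all genes moved as well. In liver minus pancreas labelled off they rose without the liver library that stood apart. They fell there without the other day-7 liver library or either day-14 pancreas library. In liver minus lung they fell labelled off without the library that stood apart, and rose labelled on without the day-7 lung replicate 1. Each of these fits leaves 1 library in a group, so nothing is read from the member counts. Without the liver library that stood apart, liver minus lung labelled off called 4 members, *C3*, *C4b*, *C1s1* and *C1ra*, and *Cfi* (adjusted *P* = 0.105) and *Serping1* (adjusted *P* = 0.0656) did not pass, while liver minus pancreas called 5, adding *C4b* and *C1s1*, both lower in the liver. *Serping1* was the 1 member called in liver minus pancreas labelled off without the other day-7 liver library or without either day-14 pancreas library. In liver minus lung labelled on, the day-7 lung replicate 1 carried much of the result: without it *C3* (-0.84, adjusted *P* = 0.09) and *C1s1* (-0.55, adjusted *P* = 0.166) did not pass. Among libraries without *mt-Co3* counts, the *Hc* difference between liver and lung labelled off turned from 0.66 ± 0.65 to -2.25 ± 0.51 (adjusted *P* = 0.011).

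Host RNA in the sorted cells was judged by 3 measures. *Alb*, the albumin mRNA of hepatocytes, was 0.785 to 16.7 CPM in the liver libraries and at most 0.765 CPM in pancreas and 0.478 CPM in lung libraries. The liver-restricted complement genes *C8a*, *C8b*, *C9*, *Mbl1* and *Mbl2* were at most 0.333 CPM in any liver library and 0.991 CPM in any library. The summed hepatocyte list, 82.4 to 1057 CPM in the liver, was mostly *Apob* (79.5 to 971 CPM), which lung libraries also held at 84.9 to 492.5 CPM. Of 14 hepatocyte markers tested, liver minus pancreas called 5 higher labelled off (median log2 3.26) and 13 labelled on (3.88). Liver minus lung called 1 higher labelled off (-0.11) and 9 labelled on (1.70), and lung minus pancreas 6 and 7. None was called lower in these contrasts, and their part in the organ differences was not tested. The third measure was *Xist*, which is transcribed from an inactive X chromosome and so marks cells of the female hosts.

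*Xist* was the gene most like *Serping1* across the 35 libraries (Pearson *r* = 0.87 on log2 CPM), and was picked for this use once that was seen. It was 1.61 to 10.5 CPM in the liver, 7.07 to 22.3 CPM in the 8 lung libraries without *mt-Co3* counts, 2.41 to 5.28 CPM in the 6 with them, and 6.94 to 42.6 CPM in the pancreas. 4 Y-linked genes, *Ddx3y*, *Kdm5d*, *Eif2s3y* and *Uty*, reached at most 3 counts in any library and so gave no measure of the male-derived cells.

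*Serping1* kept closest to *Xist* in the lung. Over the 14 lung libraries the ratio of *Serping1* to *Xist* ran from 1.02 to 2.26, a 2.2-fold span, while *Serping1* itself ran from 3.28 to 25.1 CPM, a 7.67-fold span. In the liver the ratio spanned 4.06-fold (0.444 to 1.80) and *Serping1* 4.32-fold. In the pancreas the ratio spanned 6.49-fold (0.446 to 2.90), more than *Serping1* itself at 2.54-fold and near the ratios of *C3* (6.48-fold) and *Cfb* (6.25-fold). The ratios of the other 8 members to *Xist* spanned at least 5.33-fold in the lung and at least 9.18-fold in the liver. *Xist* was picked for its likeness to *Serping1* over these same libraries. The narrower ratio of *Serping1* follows in part from that choice, and nothing is read from it. Median ratios to *Xist* in pancreas, liver and lung were 9.47, 41.9 and 88.6 for *C3* and 0.31, 9.23 and 2.44 for *Cd55*, so neither kept 1 ratio to this measure across organs.

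With log2 *Xist* as a covariate, a setting chosen after the values were seen, the *Serping1* difference between liver and lung labelled off was -0.44 ± 0.38 in place of -2.02 ± 0.46, and between liver and pancreas -1.01 ± 0.45 in place of -2.84 ± 0.50, and it passed in no comparison. *Xist* was picked for its likeness to *Serping1*, so these smaller differences follow from the choice and nothing is read from them. In liver minus lung labelled off, *C3* alone stayed called (-2.53 ± 0.57, adjusted *P* = 0.0497), and *C1s1*, *C1ra*, *Cfi* and *C4b* kept their direction at -2.03, -1.39, -0.98 and -1.78 without passing. In that fit 0.771% of 16606 genes were called lower. *Cd55* stayed called in liver minus pancreas, at 2.65 ± 0.66 labelled off and 4.02 ± 0.29 labelled on, beside 3.52% and 12.1% of genes called higher. In the pancreas, *Hc* (4.75 ± 0.43) and *C1ra* (2.69 ± 0.29) stayed called at day 7 and *Hc*, *C1s1*, *C1ra* and *Cfi* at day 14. These stood beside 0.215% of genes called higher at day 7 and 3.7% at day 14.

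*Alb* served as the measure of hepatocyte RNA and gave no measure of other host cells, those of the lung included. *C3* was higher in lung libraries, 245 to 2196 CPM with *Alb* at 0.478 CPM or less, than in liver libraries, 31.8 to 545 CPM. The ratio of *C3* to *Alb* over the 11 liver libraries ran from 8.91 to 74.6, an 8.37-fold span where *C3* spanned 17.1-fold. The ratio of *Hc* to *Alb* ran from 0.103 to 4.47, a 43.5-fold span where *Hc* spanned 62.1-fold. In pancreas libraries labelled on *Hc* was 7.83 to 12.8 CPM with *Alb* at 0.0665 to 0.765 CPM.

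**Figure D4:**
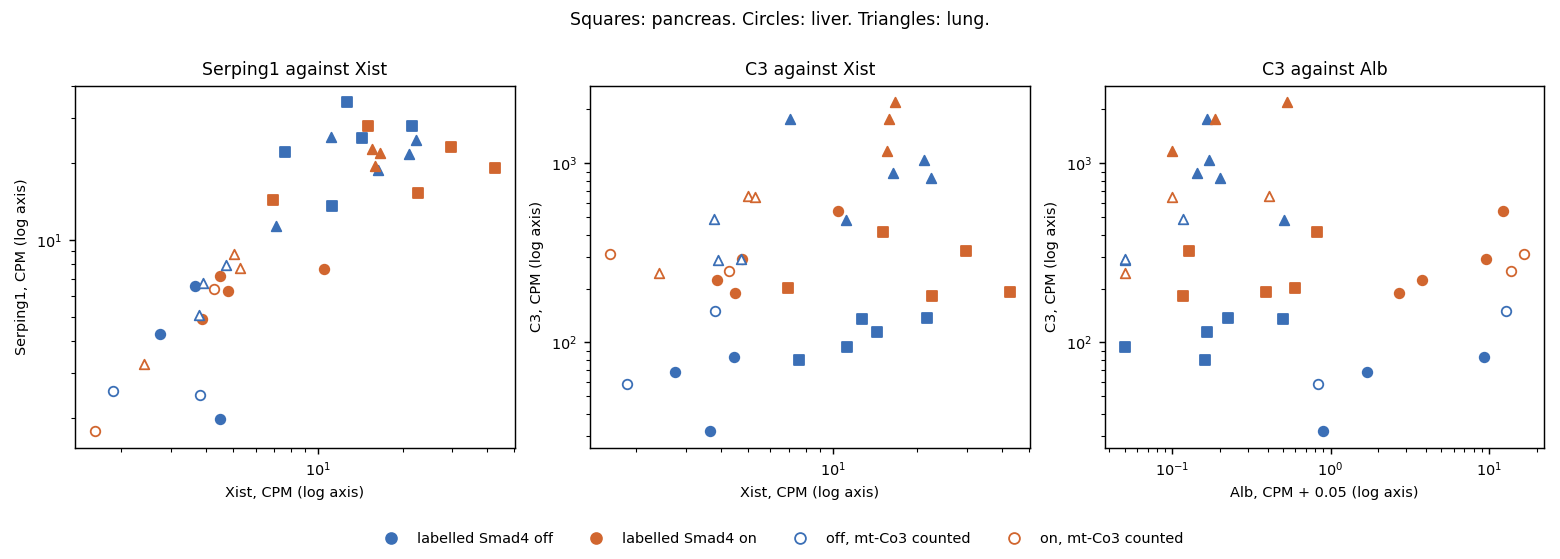
*Serping1* and *C3* against *Xist*, and *C3* against *Alb* (plus 0.05 CPM, so that zeros can be drawn), 1 point per library in TMM-scaled CPM on log axes; squares are pancreas, circles liver, triangles lung, and open points are libraries with *mt-Co3* counts. The ratio of *Serping1* to *Xist* is 1.02 to 2.26 in the lung and 0.446 to 2.90 in the pancreas, and the highest *C3* values are lung libraries with *Alb* at or below 0.478 CPM.

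Of a wider list of 51 complement genes, 42 were no members of the 9. Among these, 23 were tested in the pancreas on each day. On each day 1 was called higher, *C4bp*, beside 0.956% of all genes at day 7 and 3.39% at day 14. This gene encodes the alpha chain of C4b-binding protein, a cofactor of factor I. *C4bp* was higher labelled on by 1.90 ± 0.31 (adjusted *P* = 0.0363) at day 7 and 2.34 ± 0.44 (adjusted *P* = 0.013) at day 14, at 0.775 to 1.41 CPM labelled off and 3.27 to 6.73 CPM labelled on. None of the 42 was called by label in liver or lung, where 21 to 24 were tested in each comparison, and at days 7 and 14 their median differences were 1.12 and 0.55 for liver and -0.29 and 0.37 for lung.

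Between organs, 28 of the 42 were tested labelled off and 26 labelled on. Lung minus pancreas called 5 higher and 8 lower labelled off (10.5% and 7.75% of all genes) and 4 and 5 labelled on (6.08% and 7.46%). Liver minus pancreas called 1 and 6 labelled off (4.63% and 3.9%) and 1 and 5 labelled on (11.0% and 11.4%). Liver minus lung called 1 and 4 labelled off (1.63% and 2.7%) and 3 and 3 labelled on (6.04% and 5.12%). *C4bp* was at 1.94 to 229 CPM in the liver and 22.7 to 184 CPM in the lung, against 0.775 to 6.73 CPM in the pancreas. *Masp1*, a protease of the lectin pathway, was lower in lung than in pancreas, with log2 differences of -4.45 labelled off and -5.99 labelled on, and *C7*, of the membrane attack complex, was higher, with 4.49 and 5.25. *C1qa*, a subunit of C1q that macrophages make, was lower in liver than in pancreas, with log2 differences of -1.86 labelled off and -1.08 labelled on, and was 14.1 to 38.0 CPM in pancreas libraries. It was also lower in lung than in pancreas, with -1.55 and -1.48. Macrophage markers in liver minus pancreas did not go 1 way: labelled off 0 of 6 tested were called higher and 3 lower, and labelled on 2 of 8 higher and 1 lower. Of 12 genes of the acute-phase and cytokine response, 1 was called by label, *Saa3*, an acute-phase apolipoprotein. It was called in the day-14 pancreas (1.81 ± 0.25, adjusted *P* = 0.0041), where 3.39% of all genes were called higher.

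The members moved with each other to different degrees. Over the 35 libraries, which share organs, *mt-Co3* sets and depth, Pearson's *r* of log2 CPM was 0.91 between the neighbours *C1ra* and *C1s1*, 0.84 between *C3* and *C4b*, 0.83 between *C3* and *Cfi* and 0.74 between *Cfb* and *Cd55*, but -0.51 between *Cfb* and *Serping1* and 0.03 between *Hc* and *Cd55*. Outside the members, the genes most like each by the same measure were *Cp* (0.95) and *Cybb* (0.93) for *C3*, *Lrg1* (0.95) and *Itih4* (0.90) for *C4b*, *Cxcl17* (0.88) and *Cp* (0.87) for *Cfi*, and *C1rl* (0.89) and *Abca8a* (0.87) for *C1ra*. They were *Eps8l3* (0.97) and *Ptprh* (0.97) for *Cd55*, *Sirt7* and *Macrod1* (both 0.93) for *Cfb*, *Serpinb1b* (0.84) and *Rhbdl3* (0.83) for *C1s1*, *Plpp7* (0.78) and *Daam2* (0.77) for *Hc*, and, after *Xist*, *CAAA01147332.1* (0.85) for *Serping1*.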

How the data were processed

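The authors trimmed 75-bp reads with Trimmomatic 0.36, aligned them to GRCm38 with STAR 2.5.3a and counted them per gene with featureCounts 1.6.3, and the deposited values are whole-number counts, not normalized, for 53465 genes in 35 libraries of 11885461 to 43571007 counts. Libraries were grouped by organ, day and Smad4 label as the sample titles give them. The members and lists were chosen with earlier results of these data known. Named genes were the 9 members, any gene of the wider complement list that passed, near-identical copies, liver-restricted complement genes, the 2 genes most correlated with each member, *Smad4* and *Alb*.

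For each organ and day, and for contrasts of organs within 1 label (6 groups, days averaged), low genes were removed by filterByExpr (at least 10 counts, total at least 15). TMM-scaled counts entered edgeR 4.0.16 (R 4.3.3) and its robust, two-sided quasi-likelihood test, and *P* values of all genes tested were adjusted by Benjamini-Hochberg. A gene was called at adjusted *P* under 0.05 and fold over 2, and the SE is the log2 fold change over the root of *F*. Correlations used edgeR's log2 CPM with a prior count of 0.5, scaled to library size. The *Xist* covariate and Dixon's limits used log2(CPM + 0.5). Differences of response were the interaction of organ and label. The functions were tested on simulated data. Alternatives were DESeq2 1.42.0, its size factors, no filter, 1 fit of 12 groups, no fold threshold, each library left out, the replicate number as a block, a covariate for libraries with *mt-Co3* counts and each day alone. A covariate for *Xist* and, in most comparisons, libraries without *mt-Co3* counts alone were added after seeing the data.

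Deviations from group means correlated between same-numbered libraries of both labels in every pair in the day-14 liver (*r* = 0.14 to 0.54) and lung (0.46 to 0.52). The same-numbered library was the best match in both directions for 1 of 3 pairs in the liver and 1 of 4 in the lung. Whether the libraries are pairs is thus not known. The main tests were unpaired, and the replicate number entered only as the block. The numbers come from the titles, and libraries with *mt-Co3* counts share numbers. Promoters are from RefSeq (GRCm38.p6). Figures were drawn with matplotlib 3.10.9.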

Additional observations from a re-analysis of the deposited data

Results flagged for a closer look

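*Cfi* in the lung at day 14 labelled off was 166 CPM in replicate 2, against 35.5 to 41.9 CPM in the other 3 libraries of that group, farther from them than Dixon's 95% limit for 4 samples allows on the log2 scale. In the same library *C3*, at 1779 CPM, and *C1s1*, at 20.6 CPM, were also the highest of their group, within that limit. It was 1 of 27 sets of 4 libraries examined, and chance alone flags about 1 in 20.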

How the results depend on the processing

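With DESeq2 the members called by label were 6 in the liver at day 7 (edgeR 0), 4 in the liver at day 14 (0) and 1 in the lung at day 14 (0), with 6 in liver minus lung labelled on (3) and 1 in the day-7 difference of responses (0). A covariate for *mt-Co3* libraries gave 3, 1 and 5 in the day-7 liver, day-14 lung and liver minus lung labelled on. Libraries without *mt-Co3* counts alone gave 8 in the day-7 liver, 2 in the day-7 lung, 2 in the day-7 difference of responses, 5 in liver minus lung labelled on, 6 in liver minus pancreas labelled off (3) and 5 in lung minus pancreas labelled on (3). The *Xist* covariate gave 1 in liver minus lung labelled off (6), 1 and 2 in liver minus pancreas labelled off and on (3 and 4) and 5 in lung minus pancreas labelled on. A single fit of 12 groups gave 1 and 0 in the pancreas at days 7 and 14 (3 and 4), 6 and 1 in the liver, and 2 in the day-7 difference of responses. No filter gave 1 in the day-7 liver. Day 14 alone gave 1, 1 and 1 in liver minus lung labelled off and on and lung minus pancreas labelled off (5). Day 7 alone gave 1 and 1 in liver minus lung labelled off and on, 0 and 2 in liver minus pancreas labelled off and on, and 1 in lung minus pancreas labelled on. Calls over all genes also rose in the day-7 liver, where 29 genes were called higher by edgeR, 1622 by DESeq2, 1706 by the single fit and 2312 without *mt-Co3* libraries. With the single fit, genes called higher in the pancreas fell to 38 at day 7 (138) and 15 at day 14 (482). In liver minus lung labelled off, genes called lower fell from 449 to 128 with the *Xist* covariate. Day 7 alone called 60 lower there, and day 14 alone 83. In liver minus pancreas labelled off, day 7 alone called 0.0% of 15683 genes. Each single-day fit named here called fewer genes than the fit of both days. Among libraries without *mt-Co3* counts, calls over all genes rose in liver minus pancreas labelled off and lung minus pancreas labelled on. They fell in liver minus lung labelled on. These 3 fits hold a group of 1 library. The cause of these changes was not tested, beyond the smaller number of libraries where some are left out.

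Leaving out each library in turn gave 2 to 4 in the pancreas at day 7 and 1 to 6 at day 14, 0 to 4 in the day-7 liver, 0 to 0 in the day-14 liver and in the lung on both days, 1 to 5 in liver minus pancreas labelled off and 4 to 5 labelled on, 5 to 7 in lung minus pancreas labelled off and 3 to 5 labelled on, 4 to 6 in liver minus lung labelled off and 1 to 6 labelled on, and 0 to 2 and 0 to 0 in the differences of responses at days 7 and 14. Single libraries moved liver minus lung labelled on (5 without the day-14 liver replicate 2 labelled on, 1 and 6 without the day-7 lung replicates 1 and 2 labelled on), lung minus pancreas labelled on (5 without either of those lung libraries) and the day-7 difference of responses (1 without the liver replicate 1 labelled off, 2 without the lung replicate 1 labelled on). The replicate block gave 0 members in the pancreas at day 7 (3 without it) and 5 at day 14 (4), where same-numbered libraries did not deviate together (*r* = -0.13 to 0.03). The block called 0.0% of all 14439 genes there at day 7. At day 14 the block called 2.64% of 14234 genes higher and 1.24% lower. It changed no member call in liver or lung, where *C1ra* at day 14 reached adjusted *P* = 0.0351 at under 2-fold (log2 0.93). In the day-14 lung the block gave 7 of 9 members an unadjusted *P* under 0.05 (3 without it), beside 2244 of 14751 genes (1485). It called 82 genes higher there (3 without it). Of 579 refits of the 31 called member values, 504 stayed called, 75 did not pass and 0 changed sign. Levels on library totals moved by more than 1 SD in 1 of 108 group means. Comparisons of 2 to 4 libraries a group limit every count here.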
